A study of Homo sapiens with 2 samples.

Results

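The large subunit of the ribosome is built in the nucleolus by assembly factors that join the precursor particle, act on it and leave again. Here 51 human genes of this kind were listed by name, with earlier results of these data known. They range from the proteins that fold and trim the ribosomal RNA precursor to those that take the particle out to the cytoplasm. A gene was measured through probe sets that name it alone in the platform annotation, and the brightest of them gave its value. Of the 51 genes, 46 had such a probe set and all 46 had a MAS5 signal above 50 in both arrays, out of 8917 genes above 50 in at least 1 array and 19775 genes named in all. BOP1 and PPAN lie only on probe sets that name several genes, and no probe set naming them alone was at hand for DDX18, EBNA1BP2 and GNL3, so these 5 have no value.

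The question was how the transcriptome of HT-29 cells, an established human colorectal adenocarcinoma line, responded to knockdown of the transcription factor MYC. Cells of the MYC siRNA group received pooled siRNAs that target MYC, while a non-targeting pool went into control siRNA cells according to the protocol, although the label of that sample gives its treatment as None. In each condition siRNA was given at 20 nM for 24 h with lipofectamine RNAiMAX, the cells were used after 48 h, and 1 array was run. Since each condition is 1 array, the values below carry no replicate error and no p-values are given. In bulk RNA, fewer cells of a type and less RNA per cell cannot be told apart.

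Ribosome assembly takes up a large share of the transcription of a growing cell, and its genes are textbook targets of MYC, which binds DNA with its partner MAX at the E-box. The assembly factors act in order. Nucleolar proteins and RNA helicases fold the 28S and 5.8S part of the precursor, ATPases and GTPases then strip early factors from it, and an export adaptor and cytoplasmic GTPases finish the subunit.

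MYC itself, measured by 1 probe set, had a signal of 1640 with MYC siRNA and 1963 with control siRNA, which is 1.20-fold lower. Its log2 ratio of -0.26 is near the SD of 0.23 between probe sets of the same gene over all genes. The study showed the knockdown by immunoblot of MYC protein, which the arrays do not measure. It also reported that MYC siRNA reduced cell growth and lowered the expression of curated MYC target sets. RNA integrity was alike by the ACTB control probe sets, whose 3' over 5' signal was 1.14 with MYC siRNA and 1.16 with control siRNA. Of 10 markers of intestinal epithelium, 8 were above 50, 6 of them higher and 2 lower with MYC siRNA. The highest ratio was that of LGALS4, at 3056 with MYC siRNA and 1771 with control siRNA, and the lowest that of EPCAM, at 4512 with MYC siRNA and 5156 with control siRNA, while the intestinal factors CDX1 and CDX2 were under 50 in both arrays. Of 11 measured markers of blood, vessel, stromal, glial and liver cells, 9 were under 50 in both arrays, and the exceptions were COL1A1, at 78.9 with MYC siRNA and 94.7 with control siRNA, and LYZ, at 6854 with MYC siRNA and 6077 with control siRNA. The epithelial markers above 50 had a median log2 ratio of 0.28, and their part in the results below was not tested.

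With MYC siRNA the assembly factors had lower signals in nearly every case. Of the 46 measured genes, 44 were lower and 2, PELP1 and RRP1, were higher (RRP1 only on the deposited scale, and lower after centring, quantile normalization or loess), whereas 46.5% of all genes above 50 were lower. Their log2 ratios, MYC siRNA over control siRNA, had a median of -0.63, a 1.54-fold lower level, against 0.033 for all genes. A 1.5-fold lower level was reached by 25 of the 46 (54.3%), against 5.72% of all genes. At the 2-fold limit used in the study for DOWN DEGs, 4 of the 46 were counted (8.70%), namely CMSS1, NOC2L, LYAR and NOP16, against 0.695% of all genes, and none of the 46 was an UP DEG, against 2.73% of all genes. Ranked from the lowest log2 ratio upwards, 7 of the 46 lay in the lowest 1% of genes and 24 in the lowest 5%. Most members were thus lower by less than 2-fold. Summed over the 46 genes, the signal was 29230 with MYC siRNA and 44250 with control siRNA, a ratio of 0.661. The brightest genes weigh most in this sum, namely NPM1, NCL and DDX21, at 7903, 5048 and 4108 with control siRNA.

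**Figure D1:**
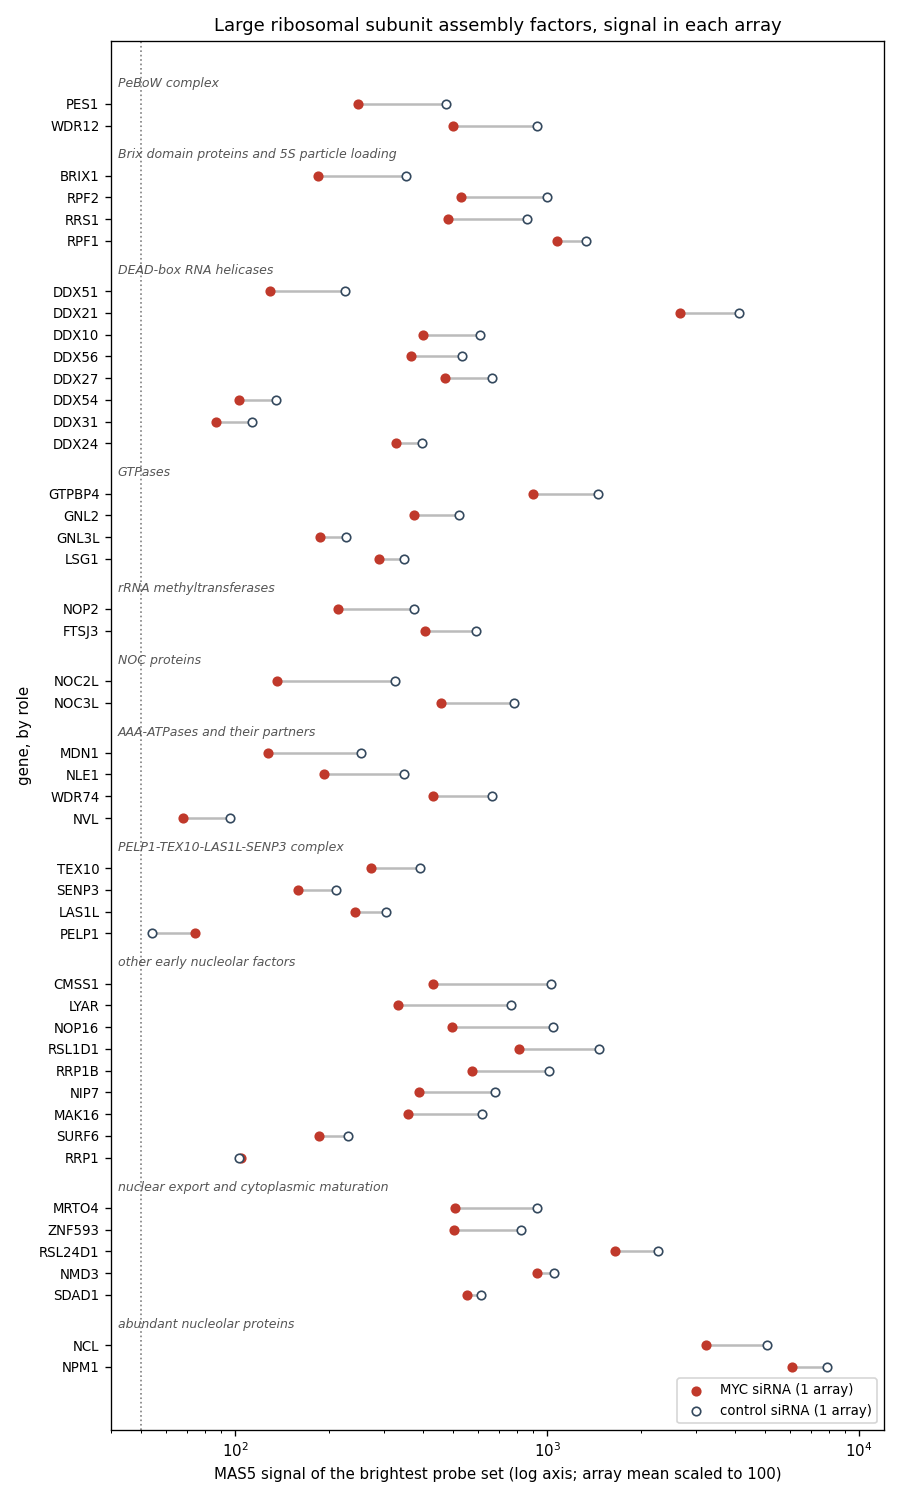
MAS5 signal (x axis, log scale) of the 46 measured assembly factors (y axis, by role and then by ratio) in the MYC siRNA array (filled circles) and the control siRNA array (open circles), with the dotted line at the floor of 50. The filled circle lies left of the open one in 44 genes, and right of it in PELP1 and, on the deposited scale, in RRP1.

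The 4 genes past 2-fold encode nucleolar proteins, and all but NOC2L were grouped with the early nucleolar factors. CMSS1, the counterpart of yeast Cms1, had a signal of 429 with MYC siRNA and 1025 with control siRNA, 2.39-fold lower and the 14th lowest ratio of all 8917 genes. NOC2L, the counterpart of yeast Noc2, which accompanies the particle through the nucleolus, had 136 with MYC siRNA and 325 with control siRNA (2.38-fold lower). LYAR, a nucleolar zinc finger protein, had 332 with MYC siRNA and 765 with control siRNA (2.30-fold lower), and its other probe set gave 204 with MYC siRNA and 512 with control siRNA (2.52-fold lower). NOP16, a nucleolar protein found in early particles in yeast, had 496 with MYC siRNA and 1042 with control siRNA (2.10-fold lower), and a second probe set gave 292 with MYC siRNA and 666 with control siRNA (2.28-fold lower). For LYAR and NOP16 the 2 probe sets above 50 therefore placed the gene past 2-fold each time, whereas CMSS1 and NOC2L rest on 1 probe set above 50. With all probe sets averaged, those at or under 50 in both arrays at 0, NOC2L and NOP16 were short of 2-fold, at log2 ratios of -0.63 and -0.56. The nearest gene short of the limit was MDN1, at 1.99-fold lower.

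Promoter sequence was set beside these ratios because MYC binds the E-box. RefSeq promoter windows (GRCh38.p14), each with 250 bases before an annotated transcript start and 50 after it, were found for 44 of the 51 genes. There was none for BOP1, DDX18, MAK16, RPF2, RRP1B, RRS1 and RSL1D1. The canonical E-box CACGTG, which reads the same on both strands, stood in a window of 18 of the 44 genes (40.9%), against 8.77% of all 27305 genes with a window and 13.6% of those above 50 on the arrays. By window, it stood in 34.5% of the 55 windows of the members and in 7.26% of all 35116 windows. CMSS1, NOC2L and NOP16 had none. LYAR carried it 64 bases before a start that is not its outermost one, and the window of its outermost start had none. Set side by side are bases from a window with the E-box and from one without it. For LYAR 30 bases around the E-box are given, with capitals for its letters. For CMSS1, the gene with the lowest ratio, the bases before its outermost start are given.
LYAR, chr4:4290068-4290097, minus strand: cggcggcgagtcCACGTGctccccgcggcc
CMSS1, chr3:99817742-99817861, plus strand: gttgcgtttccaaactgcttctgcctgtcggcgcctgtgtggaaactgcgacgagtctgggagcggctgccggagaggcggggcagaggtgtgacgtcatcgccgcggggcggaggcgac

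In 8 measured members an E-box lay within the 50 bases after a start, and the log2 ratios of these members ran from -0.99 to -0.48. All 8 were lower, as were 44 of the 46 measured members. Each E-box is shown with up to 12 bases on either side.
GNL2, chr1:37595917-37595946, minus strand: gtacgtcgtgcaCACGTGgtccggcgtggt
NLE1, chr17:35142274-35142303, minus strand: ctctttctcctcCACGTGgggacgcaggat
PES1, chr22:30591880-30591909, minus strand: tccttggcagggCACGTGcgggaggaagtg
MRTO4, chr1:19251807-19251836, plus strand: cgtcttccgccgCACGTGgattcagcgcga
NOC3L, chr10:94362903-94362932, minus strand: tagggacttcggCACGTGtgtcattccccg
ZNF593, chr1:26169916-26169945, plus strand: cggaagtgctcaCACGTGtgctccctgccc
MDN1, chr6:89819750-89819779, minus strand: cgtgtgctcaccCACGTGtggtgcccctct
NOP2, chr12:6568242-6568268, minus strand: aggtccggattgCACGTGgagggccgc

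Their first bases were at 4 (GNL2), 13 (NLE1), 14 (PES1), 15 (MRTO4), 20 (NOC3L), 21 (ZNF593), 28 (MDN1) and 36 (NOP2), counting the start as 1. That of PES1 is counted from a start that is not its outermost one. EBNA1BP2 and GNL3, which have no value on the arrays, also had an E-box after a start. In 3 other measured members every E-box lay more than 70 bases from the start, a limit chosen after the ratios were seen. Their sequences follow.
SURF6, chr9:133336395-133336424, minus strand: ggagcacaggaaCACGTGcgggaccggggt
SDAD1, chr4:75991156-75991185, minus strand: tacatgctaacaCACGTGaaaaaatttaca
PELP1, chr17:4704362-4704387, minus strand: gtccggacCACGTGtacctttaacat

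These 3 lay 224, 228 and 242 bases before the start in SURF6, SDAD1 and PELP1, and the log2 ratios were -0.32, -0.14 and 0.46. The 13 measured members with an E-box within 70 bases had a median of -0.78, from -1.20 in LYAR to -0.38 in DDX31. In DDX21, LYAR and PES1 the start counted from is not the outermost one. Because the limit of 70 bases was chosen after these ratios were seen, the split does not test the position of the E-box. PELP1 was also near the floor of 50, on 1 probe set. By presence alone the members overlapped widely. The 16 measured members with an E-box had a median log2 ratio of -0.67 and the 25 with a window but none had -0.54, and 9 of 16 and 11 of 25 were at least 1.5-fold lower. Among all genes above 50 the medians were -0.034 with and 0.040 without the E-box. A match in a window is a description of its letters and shows no binding.

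**Figure D2:**
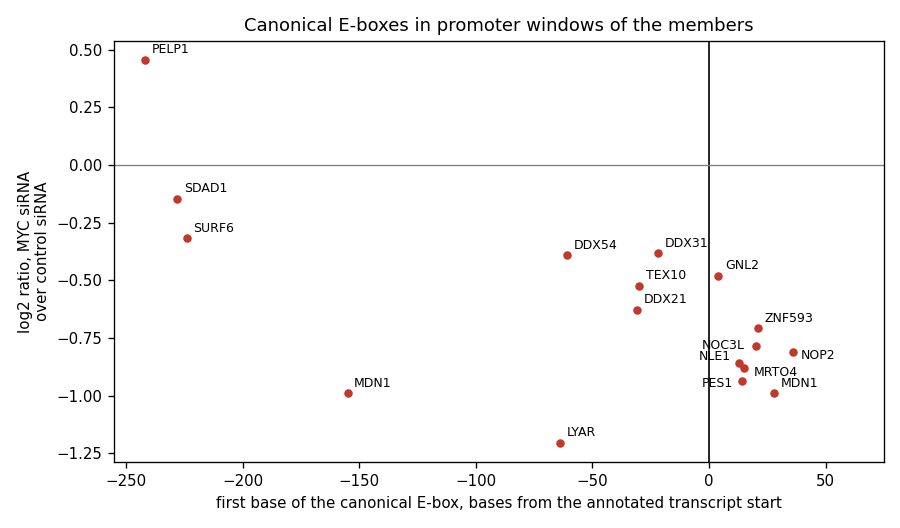
Log2 ratio (MYC siRNA over control siRNA, y axis) of the 16 measured members with a canonical E-box, by the position of its first base from the transcript start (x axis, bases, negative before the start). MDN1 appears at 2 positions, the farther 155 bases before the start, with a ratio of -0.99. SURF6, SDAD1 and PELP1, with an E-box more than 200 bases before the start, have ratios from -0.32 to 0.46. These positions were singled out after the ratios were seen, so the figure does not test the position of the E-box.

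The measured PeBoW and Brix domain genes were all lower. The PeBoW complex of PES1, BOP1 and WDR12 is needed to remove the spacer between 5.8S and 28S rRNA. PES1, the counterpart of yeast Nop7, had a signal of 247 with MYC siRNA and 473 with control siRNA (1.91-fold lower). WDR12 had 498 with MYC siRNA and 929 with control siRNA (1.87-fold lower). Brix domain proteins bind the folding precursor, and RPF2 with RRS1 brings in the 5S particle. BRIX1 had 185 with MYC siRNA and 354 with control siRNA (1.92-fold lower). RPF2 had 531 with MYC siRNA and 996 with control siRNA (1.88-fold lower), and its partner RRS1 had 479 with MYC siRNA and 862 with control siRNA (1.80-fold lower). In their brightest probe sets the log2 ratios of these 5 genes lay closer together than the SD of 0.16 between probe sets of the same member. With all probe sets averaged, those at or under 50 in both arrays at 0, PES1 was at -0.47 and WDR12 at -0.30 on the log2 scale, apart from BRIX1, RPF2 and RRS1, which have 1 probe set each and kept their values. RPF1, also of the Brix family, had 1075 with MYC siRNA and 1331 with control siRNA (1.24-fold lower).

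The early nucleolar factors held 3 of the 4 genes past 2-fold and, with 8 of 9 lower on the deposited scale, had a median log2 ratio of -0.82. RSL1D1, with an L1 domain like that of a ribosomal protein, had 812 with MYC siRNA and 1468 with control siRNA (1.81-fold lower), although a dimmer probe set was 1.18-fold lower. RRP1B had 575 with MYC siRNA and 1012 with control siRNA (1.76-fold lower). Its relative RRP1, the other human counterpart of yeast Rrp1, had 104 with MYC siRNA and 103 with control siRNA, a log2 ratio of 0.023, which became -0.011 after median centring. NIP7, which acts in precursor processing, had 389 with MYC siRNA and 682 with control siRNA (1.75-fold lower), and its other probe set was 1.78-fold lower. MAK16, named after its yeast counterpart, had 358 with MYC siRNA and 618 with control siRNA (1.73-fold lower), while SURF6, the counterpart of yeast Rrp14, had 185 with MYC siRNA and 231 with control siRNA (1.25-fold lower). NOC3L, which pairs with NOC2L's counterpart in yeast, had 456 with MYC siRNA and 785 with control siRNA (1.72-fold lower).

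The rRNA methyltransferases were lower too. NOP2, which methylates a cytosine of 28S rRNA, had 213 with MYC siRNA and 374 with control siRNA (1.75-fold lower). FTSJ3, the counterpart of yeast Spb1, had 404.4 with MYC siRNA and 589.7 with control siRNA (1.46-fold lower).

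All 8 measured DEAD-box helicases, which use ATP to open RNA duplexes, were lower. Their median log2 ratio was -0.52, and 3 of the 8 were at least 1.5-fold lower. DDX51, which acts in maturation of the 28S 3' end in mouse cells, had 130 with MYC siRNA and 225 with control siRNA (1.73-fold lower), and its second probe set was 1.71-fold lower. DDX21, a helicase of the nucleolus that also acts at RNA polymerase II genes, had 2661 with MYC siRNA and 4108 with control siRNA (1.54-fold lower), and 1.72-fold in the other probe set. DDX10, whose yeast counterpart Dbp4 acts in small subunit processing, had 401 with MYC siRNA and 608 with control siRNA (1.52-fold lower), the smallest fold past 1.5. DDX56, the counterpart of yeast Dbp9, came just short of it with 366 with MYC siRNA and 534 with control siRNA (1.46-fold lower). The other 4 helicases lay nearer to no change. DDX27, the counterpart of yeast Drs1, had 469 with MYC siRNA and 665 with control siRNA (1.42-fold lower). DDX54, the counterpart of yeast Dbp10, had 103 with MYC siRNA and 135 with control siRNA (1.31-fold lower). DDX31, the counterpart of yeast Dbp7, had 86.9 with MYC siRNA and 113 with control siRNA (log2 ratio -0.38). DDX24, the counterpart of yeast Mak5, had 329 with MYC siRNA and 398 with control siRNA (1.21-fold lower). For DDX24 the other probe set, at 135 with MYC siRNA and 193 with control siRNA, was 1.43-fold lower, so its place among these helicases depends on the probe set.

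The AAA-ATPases that strip factors from the particle and their partners had a median log2 ratio of -0.74 over 4 genes, and the 4 measured GTPases one of -0.38, all lower. MDN1, the giant AAA-ATPase whose yeast counterpart Rea1 removes the WDR12 and NLE1 proteins, had 127 with MYC siRNA and 253 with control siRNA (1.99-fold lower). Its substrate NLE1 had 192 with MYC siRNA and 348 with control siRNA (1.81-fold lower), but a second probe set, at 46.7 with MYC siRNA and 64.0 with control siRNA, was 1.28-fold lower with signals under 50 set to 50. WDR74, whose release from the particle needs the AAA-ATPase NVL, had 431 with MYC siRNA and 665 with control siRNA (1.54-fold lower), against 1.84-fold in another probe set. NVL itself had 67.8 with MYC siRNA and 95.9 with control siRNA (1.42-fold lower). Among the GTPases, GTPBP4, the counterpart of yeast Nog1, had 898 with MYC siRNA and 1454 with control siRNA (1.62-fold lower), and another probe set had 375 with MYC siRNA and 777 with control siRNA (2.07-fold lower). GNL2, the counterpart of yeast Nog2, had 375 with MYC siRNA and 523 with control siRNA (log2 ratio -0.48). GNL3L had 187 with MYC siRNA and 227 with control siRNA (1.21-fold lower). LSG1, which in yeast frees NMD3 from the subunit, had 289 with MYC siRNA and 347 with control siRNA (1.20-fold lower). For GNL3L and LSG1 all 3 probe sets above 50 were lower, by at most 1.31-fold.

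The complex of PELP1, TEX10, LAS1L and SENP3, in which LAS1L is the nuclease that cuts the second internal spacer and SENP3 a SUMO protease, held no gene that reached 1.5-fold. TEX10 had 272 with MYC siRNA and 391 with control siRNA (1.44-fold lower). SENP3 had 159 with MYC siRNA and 210.1 with control siRNA (1.32-fold lower). LAS1L had 242 with MYC siRNA and 305 with control siRNA (1.26-fold lower). These 3 lay nearer to no change than the median of the list. PELP1, with the highest ratio of all 46 genes, had 74.3 with MYC siRNA and 54.1 with control siRNA (1.37-fold higher). Its signal lay close to the floor of 50 and rests on 1 probe set. In the dimmest of 5 equal groups of all genes by signal, to which PELP1 belongs, the median log2 ratio was 0.15.

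Factors of nuclear export and cytoplasmic maturation had log2 ratios from -0.88 to -0.14. MRTO4, the placeholder for the stalk protein P0, had 506 with MYC siRNA and 930.2 with control siRNA (1.84-fold lower), and 1.88-fold lower in a second probe set. ZNF593, the counterpart of the yeast shuttling factor Bud20, had 503 with MYC siRNA and 821 with control siRNA (1.63-fold lower). RSL24D1, the placeholder for ribosomal protein eL24, had 1644 with MYC siRNA and 2264 with control siRNA (1.38-fold lower), short of the 1.5-fold that MRTO4 and ZNF593 passed. NMD3, the adaptor that binds the exportin XPO1, had 929 with MYC siRNA and 1051 with control siRNA (1.13-fold lower), and its 3 probe sets were lower by 1.12-fold to 1.20-fold. SDAD1, the counterpart of yeast Sda1, had 554 with MYC siRNA and 613 with control siRNA (1.11-fold lower). The log2 ratios of NMD3 and SDAD1, -0.18 and -0.14, were within the SD of 0.23 between probe sets over all genes, and that of NMD3 was beyond the SD of 0.16 over the members.

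The multifunctional nucleolar proteins nucleolin and nucleophosmin were also lower. NCL, which binds the precursor RNA, had 3219 with MYC siRNA and 5048 with control siRNA (1.57-fold lower). NPM1, which also acts as a chaperone of histones, had 6114 with MYC siRNA and 7903 with control siRNA (1.29-fold lower), and its other probe sets were 1.43-fold and 1.60-fold lower.

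Other probe sets of the same genes gave the only repeat measurement within these arrays. Besides the 46 probe sets used, 24 further ones of 20 members were above 50 in at least 1 array, and all 24 were lower with MYC siRNA, 10 of them by at least 1.5-fold and 3 by at least 2-fold. All 20 members were also lower in their brightest probe set, since PELP1 and RRP1 had no further probe set above 50. The same shares over the further probe sets of all genes were not computed. Between probe sets of 1 gene the SD was 0.16 on the log2 scale over these 20 members and 0.23 over 4040 genes, and it leaves out variation between cultures. The widest span was that of RSL1D1, 0.62 on the same scale. Of the 46 probe sets used, 25 end in a suffix that marks possible binding to several transcripts. Without all such probe sets 29 members could be measured, all 29 were lower, and the 2 past 2-fold were GTPBP4 and NOP16. Of all genes measured in this way, 45.5% were lower and 0.61% were at least 2-fold lower. PELP1 and RRP1, the 2 members higher on the deposited scale, dropped out, as did CMSS1, LYAR and NOC2L.

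**Figure D3:**
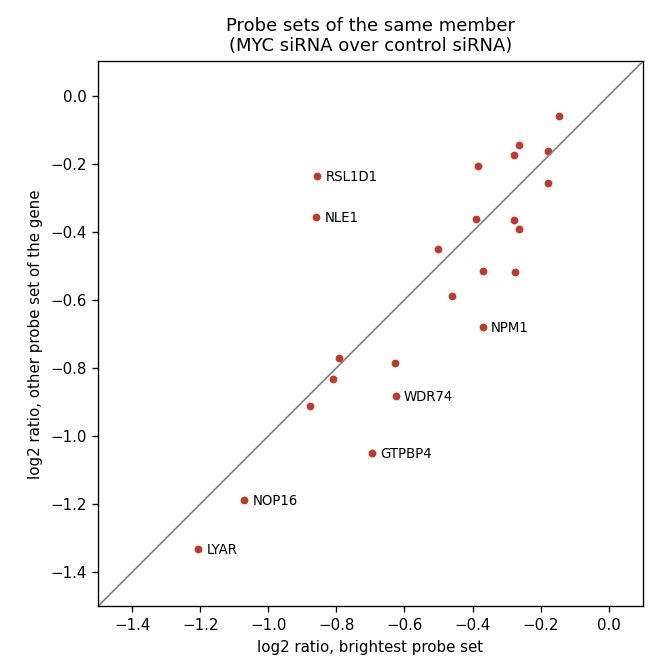
Log2 ratio, MYC siRNA over control siRNA, in the brightest probe set (x axis) and in each other probe set above 50 of the same member (y axis), 24 points of 20 genes, with the line of equal values. All points lie below 0 on both axes, and RSL1D1 and NLE1 lie farthest above the line.

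Over all genes the log2 ratio differed with signal, from a median of 0.15 in the dimmest to -0.097 in the brightest of 5 equal groups by mean signal. The members lay mostly in the upper groups, with 18 in the fourth and 11 in the brightest group. In the fourth group the members had a median of -0.75 and all genes -0.0061, and in the brightest the members had -0.65 and all genes -0.097. In the third group 9 members had -0.52, against 0.043 for all genes, and in the second 6 members had -0.40, against 0.095. Within each of these 4 groups the members were thus lower than the median of genes of like signal. After loess of the ratio on signal the median of the members was -0.61, with 45 of 46 lower.

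**Figure D4:**
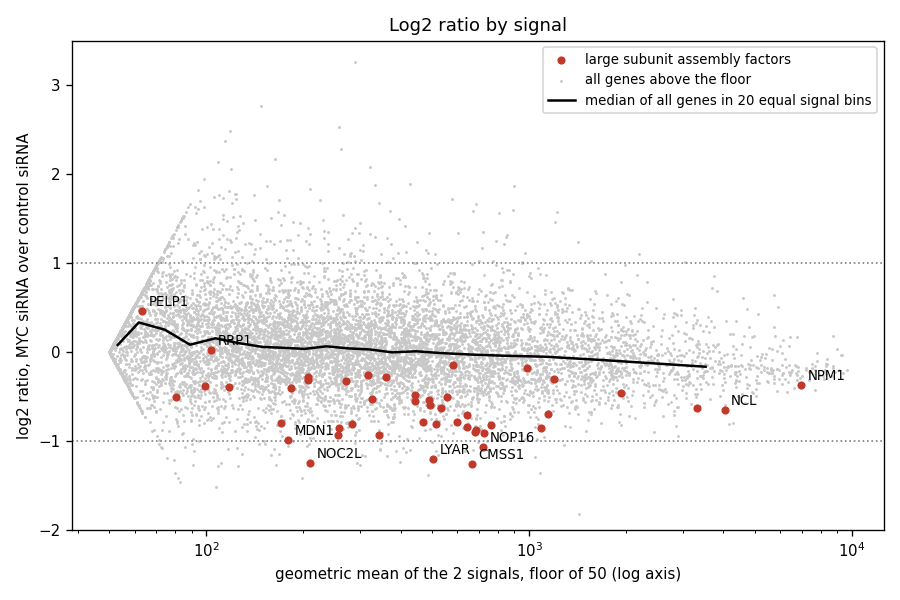
Log2 ratio (MYC siRNA over control siRNA, y axis) against the geometric mean of the 2 signals (x axis, log scale, floor of 50) for the 46 members (large points) and all 8917 genes above 50 (small points), with the median of all genes in 20 signal bins (line) and dotted lines at 2-fold. Most members lie below the line, and PELP1 lies above it at the dim end.

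Genes with neighbouring roles, from lists written with earlier results of these data known, were set beside the members. Of 34 further large subunit assembly factors above 50, 33 were lower and 1 higher, 11 by at least 1.5-fold, with a median log2 ratio of -0.36. NPM3, a relative of nucleophosmin, was 2.23-fold lower, NIFK, a nucleolar partner of Ki-67, 1.94-fold, BCCIP 1.77-fold and URB2 1.73-fold. EFL1, the GTPase that evicts eIF6 in the cytoplasm, had 183 with MYC siRNA and 135 with control siRNA (1.35-fold higher), and AAMP had 725 with MYC siRNA and 736 with control siRNA. Of 53 small subunit assembly factors, 51 were lower and 2 higher, with 25 past 1.5-fold and a median of -0.55. TSR1, WDR3 and RRP9 were lower by 2.18-fold, 2.14-fold and 2.04-fold, NOB1, the nuclease that makes the 18S 3' end, had 261 with MYC siRNA and 523 with control siRNA, and the kinase RIOK3 and TSR2 were 1.27-fold and 1.06-fold higher. The share past 1.5-fold was 54.3% in the members, 47.2% in the small subunit factors and 32.4% in the further large subunit factors, and no test of these differences is possible with 1 array each.

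The proteins that the factors assemble lay closer to the other genes. All 30 measured large subunit ribosomal proteins were lower on the deposited scale (25 of 30 after quantile normalization and 27 of 30 after loess). Their median log2 ratio was -0.24, and 1 of the 30, RPL14, reached 1.5-fold (1.52-fold lower), as none did after quantile normalization or loess. Their log2 ratios lay between -0.60 and -0.13, a narrower range than the -1.26 to 0.46 of the assembly factors. The ribosomal proteins were also far brighter, with a median control siRNA signal of 6943 against 610 in the assembly factors. Whether ratios narrow at such high signals was not tested. After quantile normalization the median of the assembly factors was -0.60 and that of the ribosomal proteins -0.061. That scaling gives both arrays the same spread of signals. It can therefore remove a shift shared by the brightest genes, among them these proteins.

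**Figure D5:**
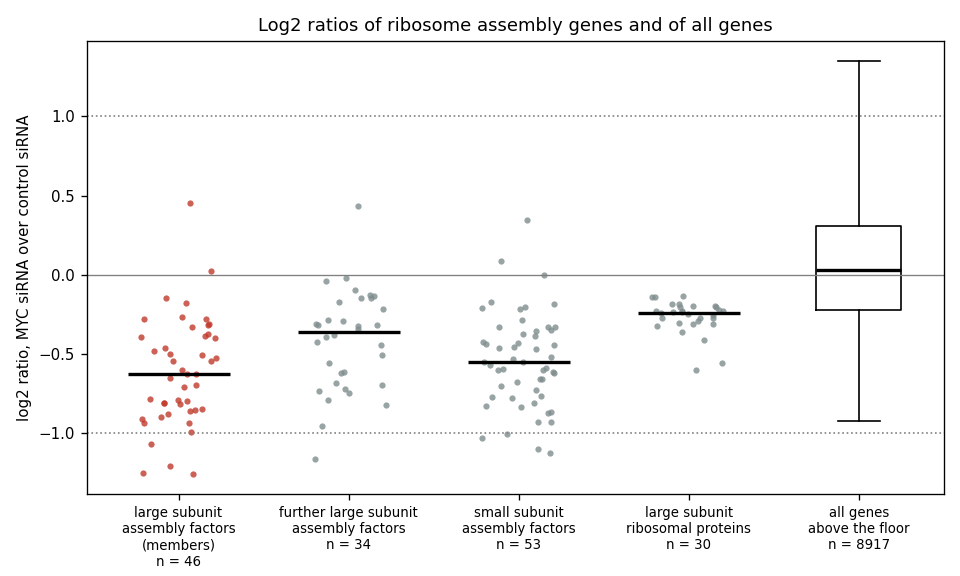
Log2 ratio (MYC siRNA over control siRNA, y axis) of the 46 members, 3 further lists of ribosome genes and all 8917 genes above 50. Points are genes, bars are medians (-0.63, -0.36, -0.55 and -0.24 in the lists), the box spans the quartiles of all genes with whiskers at the 1st and 99th percentiles, and dotted lines mark 2-fold.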

How the data were processed

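Total RNA of HT-29 cells with MYC siRNA (1 array) and control siRNA (1 array) was hybridized to GeneChip Human Genome U133 Plus 2.0 arrays. The deposited intensity values cover 54675 probe sets and were computed by the authors as MAS5 signals with affy 1.40.0. They were scaled to a mean level of 100, with no logarithm and no further normalization between arrays. Each ratio is therefore relative to the mean level of the arrays. The mean without the highest and lowest 2% was checked and was 100 in both. Genome build and coordinates of probe sets were not used. By GEO's platform annotation 41097 probe sets stand for 1 gene and 1801 for several, and it omits 11777. Current symbols were found in RefSeq (GRCh38.p14) by gene identifier.

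Signals under 50 were set to 50 and each gene's log2 ratio, MYC siRNA over control siRNA, came from its brightest probe set. The 2-fold limits of the study's methods (at least 2 for UP DEGs, at most 0.5 for DOWN DEGs) were applied by gene. A 1.5-fold limit was added. Genes at or under 50 in both arrays were left out. The number of arrays limits the precision, since nothing measures the variation between cultures. Named are all members, and from each other list up to 4 genes with the lowest and 2 with the highest ratios at a signal of at least 100. The members and lists were chosen with earlier results of these data known. The calculation was tested on simulated arrays. Alternatives were other floors, scalings and rules for probe sets. The planned protein features were not analysed here. Scripts ran in Python 3.11.15 with pandas 2.3.3, numpy 2.4.6, statsmodels 0.14.6 and matplotlib 3.10.9.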

Additional observations from a re-analysis of the deposited data

How the results depend on the processing

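Under 10 alternatives the direction held for 436 of 439 values of single members. The exceptions were RRP1, at -0.011, -0.075 and -0.10 on the log2 scale after median centring, quantile normalization and loess. Many of the 439 values could not have changed direction. Another floor, or a limit of 100 on the brighter array, cannot turn a ratio round. Nor can dim probe sets that enter an average with a ratio of 0. For these alternatives the count is therefore no test of direction. In size, 420 of the 439 moved by at most the SD between probe sets and 19 by more, 13 of them with all probe sets averaged, such as MDN1 to -0.33, NOC2L to -0.63 and RSL1D1 to -0.36. Averaging every probe set of each gene, with a ratio of 0 for any dimmer than the floor in both arrays, gave 2 members past 2-fold (CMSS1 and LYAR), 14 past 1.5-fold, against 3.45% of all genes, and a median of -0.48, with -0.31 for the further large subunit and -0.44 for the small subunit factors. With only probe sets above 50 averaged, an alternative chosen after seeing the data, these 2 lists had medians of -0.40 and -0.59. Without probe sets that can bind several transcripts 29 members were measured, which left out PELP1 and RRP1. All 29 were lower, against 45.5% of all genes, and 2 passed 2-fold, against 0.61% of all genes. The medians were -0.71 for the members and -0.41 for the further large subunit factors. Median centring gave -0.59 for the small subunit factors. The ribosomal proteins had -0.061 after quantile normalization and -0.070 after loess, which can both remove a shift shared by the brightest genes. MDN1 joined the 2-fold calls under all 3 of these scalings. Over all genes the 62 DOWN and 243 UP calls became 72 and 396 with a floor of 25, 43 and 128 with a floor of 100, 69 and 384 with no floor and 1 added, 34 and 139 with the average of all probe sets, and 38 and 169 without probe sets that can bind several transcripts. No paired analysis was possible because each condition has 1 array. Leaving out a replicate is not possible for the same reason.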

Other observations

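The canonical E-box was also counted in the promoter windows of the neighbouring gene lists, by the same search. It stood in a window of 21 of 47 small subunit assembly factors (44.7%), 5 of 34 further large subunit assembly factors (14.7%) and 2 of 38 large subunit ribosomal proteins (5.26%). The share was 40.9% in the members, 8.77% in all genes with a window and 13.6% in those above 50 on the arrays. The further large subunit factors were thus near the share of genes above 50. In the small subunit list, 21 measured genes with the E-box had a median log2 ratio of -0.60 and 25 without it -0.46. In the further large subunit list, the 5 with the E-box had -0.62 and the 25 without it -0.32. The 24 measured ribosomal proteins without the E-box had -0.24. The lists were written with earlier results of these data known, the windows cover a fixed distance from annotated starts that may not be the ones used in HT-29 cells, and base composition was not tested.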
